A study of Mus musculus with 12 samples.

Results

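Transcript levels in 4T1 cells treated with APAP were set against those in control 4T1 cells, in 3 APAP libraries and 3 PBS libraries out of 12 libraries in the whole study. The libraries were chosen by their treatment labels and titles. 4T1 is an established mouse mammary carcinoma line that grows attached to plastic, and the labels give the genotype as WT in every group. The other groups, Oxa and OAP2, held 3 libraries each and enter here for the spread between replicates and for a few side by side values. The titles call the control group PBS, its treatment label reads DMSO, and its columns carry the name CON, which was matched to PBS as the only group whose label names no drug. The meaning of APAP is not written out in the labels, but it is the usual abbreviation of acetaminophen. Doses and treatment times were not among the labels, and the design text speaks of xenografts where the labels speak of a cell line. Nothing says whether replicates were separate cultures, so each p-value speaks of the spread among these libraries, which may be technical.

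As background, acetaminophen is an analgesic that lowers prostaglandin formation by the cyclooxygenases Ptgs1 and Ptgs2. In liver it is conjugated to glucuronide or sulfate, and a minor part is oxidised, mainly by the cytochrome Cyp2e1, to a reactive quinone imine that consumes glutathione. 4T1 cells form tumours that spread to distant organs and are known for secreting colony stimulating factors and neutrophil-attracting chemokines.

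APAP differed from PBS in few genes by the test across all genes. The desmosomal cadherin Dsg3 and the stress-responsive kinase Plk2 were lower in APAP, and no gene was called higher. A gene was called when the adjusted p from edgeR's quasi-likelihood test, with Benjamini-Hochberg adjustment over 12036 tested genes, lay below 0.05. The called genes were 0.0166% of those tested. DESeq2 called 97 genes, 0.806% of those tested, and Dsg3 and Plk2 were among them. Without PBS 2, a control library that stood apart, 3 genes were called, 0.0249% of those tested, and the added gene was Stom, which encodes the membrane protein stomatin. Below the threshold of the adjusted test, 1103 genes had an unadjusted p below 0.05, 9.16% of those tested, with 633 (5.26%) lower and 470 (3.9%) higher in APAP. Without PBS 2 these were 1281 genes, 564 (4.69%) lower and 717 (5.96%) higher. The log2 fold change was below 0 in 50.9% of tested genes, and in 50.4% without PBS 2.

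The libraries held 64367096, 66223586 and 66781224 counts in APAP 1 to 3, against 67653798, 69579384 and 65834234 counts in PBS 1 to 3. Epithelial markers were abundant, with a summed level of 1169 to 1246 FPKM in APAP and 1231 to 1532 FPKM in PBS. FPKM counts fragments scaled to transcript length and to library size. The 7 erythroid markers in the table summed to at most 0.28 FPKM in APAP, against 0.07, 231.89 and 0.09 FPKM in PBS 1 to 3. The 9 neutrophil markers summed to at most 0.35 FPKM in APAP, against 0.45, 67.66 and 0.01 FPKM in PBS 1 to 3. The 10 macrophage markers summed to 12.34 to 17.74 FPKM in APAP, against 46.94, 12.61 and 12.24 FPKM in PBS 1 to 3. Cd68 and Lyz2 made up most of these sums. Lyz2 had 9.27, 5.13 and 4.65 FPKM in APAP, against 31.01, 6.23 and 0.0 FPKM in PBS 1 to 3. Cd68 had 7.84, 10.21 and 7.27 FPKM in APAP, against 12.81, 5.74 and 12.04 FPKM in PBS 1 to 3. Of the tested genes, 34.9% were highest among the 6 libraries in PBS 2. The main results below are given with and without PBS 2. The source of these erythroid, neutrophil and macrophage marker transcripts, and their part in the results, were not tested.

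Dsg3 encodes desmoglein 3, a cadherin of desmosomes, the junctions that tie keratin filaments of neighbouring epithelial cells together. Dsg3 (ENSMUSG00000056632, GRCm38 chr18:20510274-20547459, plus strand) had 6.82, 7.62 and 6.25 FPKM in APAP 1 to 3, against 11.71, 13.77 and 12.45 FPKM in PBS 1 to 3. The groups did not overlap, and PBS 2 was only slightly above the other controls. The counts behind these levels were 3541 to 4394 in APAP and 6817 to 7781 in PBS. The log2 fold change of APAP over PBS was -0.83 ± 0.10 (SE), and edgeR gave an adjusted p of 0.0163. Without PBS 2 it was -0.77 with an edgeR adjusted p of 0.0214. The call was lost without APAP 1 (edgeR adjusted p = 0.197) and without APAP 3 (edgeR adjusted p = 0.0782), while the fold change stayed between -0.92 and -0.75.

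No other desmosome gene was called. Of 13 tested members of the desmosome list, Dsg3 was the only one called, 6 lay above 0 and 7 below, and the median log2 fold change was -0.02 (-0.05 without PBS 2), beside -0.004 over all tested genes. Desmoplakin (Dsp), which links the junction to keratin filaments, had 29.56, 31.22 and 29.72 FPKM in APAP, against 24.23, 21.70 and 25.19 FPKM in PBS. Every APAP library was thus above every PBS library for Dsp, without a call (log2 fold change 0.39 ± 0.10, edgeR adjusted p = 0.258). Desmoglein 2 (Dsg2) had a log2 fold change of -0.03 and desmocollin 2 (Dsc2) of 0.07. Plakophilin 1 (Pkp1) had a log2 fold change of -1.10 with PBS 2 and -0.36 without it.

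Plk2 encodes polo-like kinase 2, a serine/threonine kinase induced by serum, growth factors and cell stress. Plk2 (ENSMUSG00000021701, GRCm38 chr13:110395046-110400844, plus strand) had 38.69, 42.55 and 45.01 FPKM in APAP 1 to 3, against 62.20, 68.60 and 69.46 FPKM in PBS 1 to 3. The highest APAP library lay below the lowest control, and the counts behind these levels were 13754 to 16422 in APAP and 23342 to 24942 in PBS. The log2 fold change was -0.62 ± 0.08, and edgeR gave an adjusted p of 0.0210. Without PBS 2 it was -0.60 with an edgeR adjusted p of 0.0214. The call was lost without APAP 1, APAP 2, APAP 3 or PBS 3, each left out in turn, with edgeR adjusted p-values of 0.301, 0.114, 0.0782 and 0.0602. Both Dsg3 and Plk2 also missed the threshold without a filter on low values (edgeR adjusted p = 0.0616 for each) and when only the 6 APAP and PBS libraries were fitted (edgeR adjusted p = 0.450 for each).

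The other polo-like kinases gave no call. The mitotic kinase Plk1 had 38.44, 34.16 and 37.99 FPKM in APAP, against 40.07, 27.04 and 39.61 FPKM in PBS, and the groups overlapped. The stress kinase Plk3 had 88.30, 60.18 and 80.08 FPKM in APAP, against 61.36, 173.16 and 61.67 FPKM in PBS. PBS 2 alone set the direction for Plk3, whose log2 fold change was -0.34 with that library and 0.35 without it.

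The promoter of Plk2 is shown because Plk2 was called with and without PBS 2. The 250 bases before its RefSeq start (GRCm38.p6, chr13:110394794-110395043, plus strand) hold the cyclic AMP response element core TGACG on both strands, as overlapping matches that begin at bases 189 and 192, marked in capitals.
Plk2: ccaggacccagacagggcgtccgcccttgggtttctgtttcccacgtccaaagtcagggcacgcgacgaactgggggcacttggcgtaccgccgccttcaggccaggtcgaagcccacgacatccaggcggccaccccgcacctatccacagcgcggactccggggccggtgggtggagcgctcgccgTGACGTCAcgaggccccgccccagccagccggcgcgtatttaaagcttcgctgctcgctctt
Searched on both strands, TGACG occurs in 17.8% of the 32851 promoter windows of this length in the RefSeq table, so the match is a description of the letters only.

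Stom encodes stomatin, an integral membrane protein of cholesterol-rich domains. Stom (ENSMUSG00000026880, GRCm38 chr2:35313986-35336976, minus strand) had 11.97, 12.41 and 12.41 FPKM in APAP, against 17.85, 16.64 and 19.76 FPKM in PBS. The APAP libraries lay close together and below every control. The log2 fold change was -0.52 ± 0.08 with an edgeR adjusted p of 0.0628, and -0.57 with an edgeR adjusted p of 0.0214 when PBS 2 was left out.

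**Figure D1:**
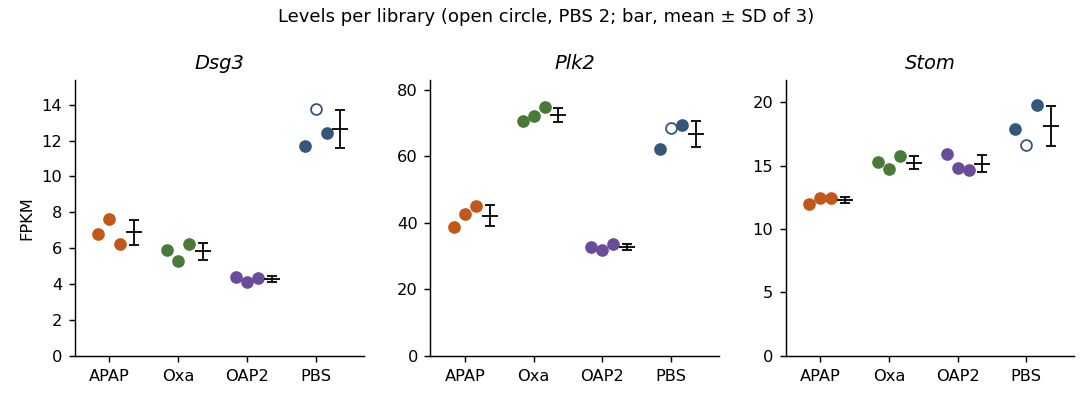
FPKM of Dsg3, Plk2 and Stom in each library, with groups APAP, Oxa, OAP2 and PBS on the horizontal axis, points for libraries, an open circle for PBS 2, and bars for the mean ± SD of 3 libraries. The APAP libraries sit below all PBS libraries for each gene, at 6.25 to 7.62, 38.69 to 45.01 and 11.97 to 12.41 FPKM, and Oxa lies near or above PBS for Plk2 but not for Dsg3.

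The same genes were read in the other treatments, to place the APAP level. Dsg3 had 5.93, 5.28 and 6.25 FPKM in Oxa and 4.40, 4.11 and 4.35 FPKM in OAP2, all at or below the lowest APAP library. The log2 difference of OAP2 from APAP was -0.71 (edgeR adjusted p = 0.0147), and that of Oxa from APAP was -0.28 (edgeR adjusted p = 0.0757, and 0.0313 in the fit without PBS 2). Plk2 split the treatments: it had 70.56, 71.99 and 74.68 FPKM in Oxa and 32.64, 31.74 and 33.72 FPKM in OAP2. Oxa was higher than APAP by 0.75 on the log2 scale (edgeR adjusted p = 0.000323), and OAP2 differed from APAP by -0.39 (edgeR adjusted p = 0.0616, and 0.00968 in the fit without PBS 2). Stom had 15.24, 14.70 and 15.73 FPKM in Oxa and 15.92, 14.84 and 14.66 FPKM in OAP2, between all APAP and all PBS libraries. Stom was higher in Oxa than in APAP by 0.28 on the log2 scale (edgeR adjusted p = 0.0374). In OAP2 it was higher than in APAP by 0.28 (edgeR adjusted p = 0.142, and 0.0303 in the fit without PBS 2). Across all genes, 15.4% were called between Oxa and APAP and 0.474% between OAP2 and APAP.

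The genes next in order of p among those lower in APAP included a caveolar coat protein, a protease and secreted ligands. They were taken as the smallest unadjusted p-values among genes whose APAP and PBS libraries did not overlap, a condition that 11.2% of tested genes met in the lower direction (20.3% without PBS 2) and 4.67% in the higher direction. Cavin2, a coat protein of caveolae, had 1.60, 1.55 and 1.83 FPKM in APAP, against 3.32, 3.43 and 4.14 FPKM in PBS. Its log2 fold change was -1.09 ± 0.16 (edgeR adjusted p = 0.0564), and -1.12 without PBS 2 (edgeR adjusted p = 0.0544). The caveolin genes Cav1 and Cav2 had log2 fold changes of -0.03 and -0.39, and of -0.01 and -0.24 without PBS 2. Of the 13 tested genes of caveolae and the stomatin family, none was called with all libraries, 10 lay below 0, and the median was -0.11, beside -0.05 without PBS 2.

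Plau encodes urokinase, the protease that turns plasminogen into plasmin at the cell surface. Plau had 26.09, 37.16 and 30.86 FPKM in APAP, against 55.48, 84.85 and 59.53 FPKM in PBS, with no overlap, which the rule that picked it required. Its log2 fold change was -1.04 ± 0.17 (edgeR adjusted p = 0.0628), and -0.83 without PBS 2 (edgeR adjusted p = 0.0782).

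No gene of the plasminogen system was called by edgeR in the fits over all groups. DESeq2 called Plau (DESeq2 adjusted p = 5.51e-06) and Serpinb2 (DESeq2 adjusted p = 0.00765). Of 8 tested members, 7 were below 0 and the same 7 had APAP libraries all below the PBS libraries, beside 11.2% of all tested genes. The median log2 fold change was -0.47, and -0.34 without PBS 2, which held the highest value of 7 of the 8 members. The inhibitor Serpinb2 had 6.94, 8.36 and 7.04 FPKM in APAP, against 13.46, 16.47 and 15.03 FPKM in PBS (edgeR adjusted p = 0.242). The urokinase receptor Plaur had 31.06, 38.73 and 30.81 FPKM in APAP, against 43.48, 56.49 and 45.10 FPKM in PBS (edgeR adjusted p = 0.296).

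Growth factor ligands were also among the genes next in order. Vegfc, a growth factor of lymphatic endothelium, had 3.49, 3.25 and 3.56 FPKM in APAP, against 5.16, 6.04 and 6.50 FPKM in PBS. Pdgfb, a mitogen of pericytes and fibroblasts, had 4.77, 5.26 and 5.99 FPKM in APAP, against 7.68, 7.48 and 9.61 FPKM in PBS. Hbegf, a ligand of the EGF receptor, had 17.22, 20.96 and 19.11 FPKM in APAP, against 26.14, 33.73 and 29.10 FPKM in PBS. These ligands were picked among genes whose APAP and PBS libraries did not overlap. Their log2 fold changes were -0.74, -0.59 and -0.59 in that order, and edgeR gave an adjusted p of 0.157 for each. Tmem176a, a membrane protein, had 4.41, 5.33 and 4.43 FPKM in APAP, against 7.13, 9.68 and 7.63 FPKM in PBS (log2 fold change -0.74, edgeR adjusted p = 0.157). Gvin1, an interferon-inducible GTPase with a near-identical copy in the table, had 1.03, 1.18 and 1.01 FPKM in APAP, against 1.71, 2.85 and 1.96 FPKM in PBS. In a list of vascular ligands gathered after these values were seen, 6 of 6 tested genes lay below 0, 5 of 6 without PBS 2, and none was called. In a list of EGF family ligands gathered in the same way, 3 of 5 tested genes lay below 0, none was called, and the median was -0.56 with PBS 2 and -0.06 without it. The vascular list holds Vegfc and Pdgfb themselves, and Edn1, given below. The EGF list holds Hbegf itself, and Nrg1, given below, so neither count is independent of the genes described here.

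Ankrd1, a muscle-type ankyrin repeat protein and a known target of the YAP and TEAD transcription factors, had 28.85, 35.14 and 36.99 FPKM in APAP, against 42.93, 56.56 and 57.89 FPKM in PBS. The groups did not overlap, which the rule that picked Ankrd1 required, and the log2 fold change was -0.60 ± 0.11 (edgeR adjusted p = 0.157). The matricellular genes Ccn1 and Ccn2, also YAP and TEAD targets, had log2 fold changes of -0.48 and -1.93, and -0.53 and -0.90 without PBS 2. Ccn2 had at most 26.74 FPKM in APAP, against 39.48, 165.78 and 41.68 FPKM in PBS, and PBS 2 stood apart from every other library. Of 18 tested targets of this list none was called, 11 lay below 0, and the median was -0.11.

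The promoters of Ankrd1 and Stom are shown as examples that hold the TEAD motif GGAATG. The windows are the 250 bases before the RefSeq start on the minus strand (GRCm38.p6, chr19:36119845-36120094 for Ankrd1 and chr2:35337010-35337259 for Stom), with the motif, in either orientation, in capitals.
Ankrd1: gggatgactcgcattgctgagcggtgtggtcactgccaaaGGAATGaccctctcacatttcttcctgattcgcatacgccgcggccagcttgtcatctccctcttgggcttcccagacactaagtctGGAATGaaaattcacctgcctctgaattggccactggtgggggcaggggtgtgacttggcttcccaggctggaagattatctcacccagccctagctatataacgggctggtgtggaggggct
Stom: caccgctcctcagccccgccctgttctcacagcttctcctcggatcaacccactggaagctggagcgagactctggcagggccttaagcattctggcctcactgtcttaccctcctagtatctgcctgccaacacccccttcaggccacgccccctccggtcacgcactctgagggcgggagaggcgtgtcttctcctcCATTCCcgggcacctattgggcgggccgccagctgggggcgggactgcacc
GGAATG was found in 3 of the 6 promoters searched among genes lower in APAP and in 1 of the 10 searched among genes higher in APAP. Besides Ankrd1 and Stom, the genes with it were Tmem176a, lower in APAP, and Ifi203, higher in APAP. GGAATG occurs in 12.6% of all windows of this length, and with so few promoters the counts describe these genes only. The AP-1 motif TGANTCA was in none of those 6 and in 2 of those 10, against 6.75% of all windows. Those 2 were Ifi203 and Mndal, neighbouring related genes with nearly the same letters around the match, so they are not separate occurrences.

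**Figure D2:**
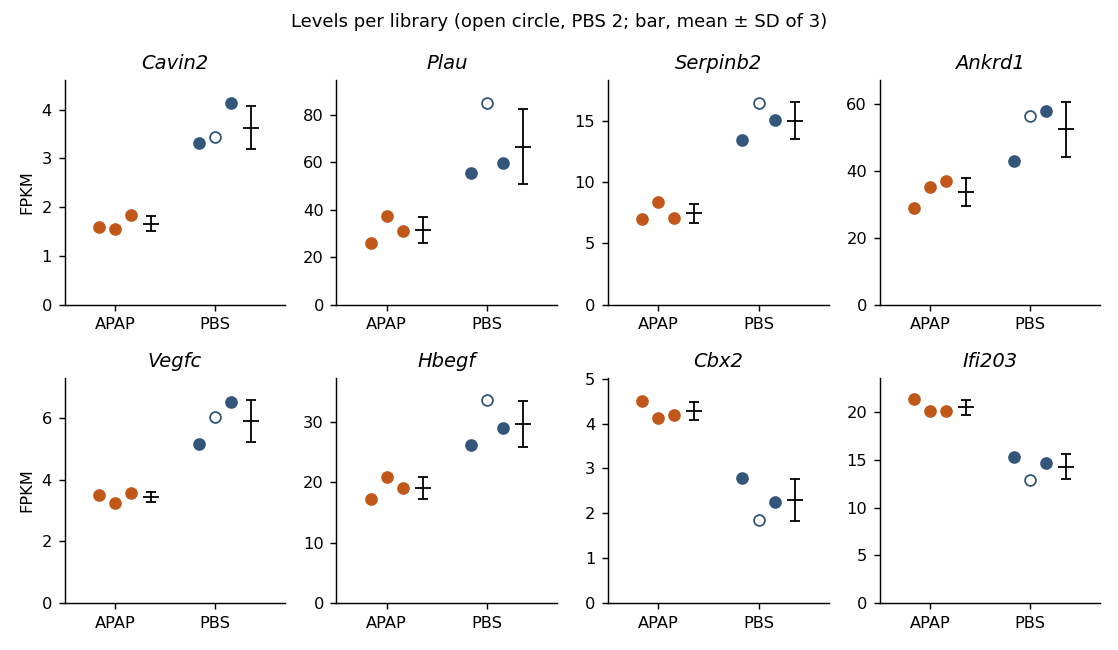
FPKM per library for some of the genes next in order of p and for Serpinb2 of the plasminogen list, APAP left of PBS. An open circle marks PBS 2, and bars give the mean ± SD of 3 libraries. Groups do not overlap in any panel, which the rule for picking required of all genes shown but Serpinb2. Cavin2 lies at 1.55 to 1.83 FPKM in APAP and 3.32 to 4.14 FPKM in PBS, and Cbx2 at 4.12 to 4.51 FPKM in APAP and 1.86 to 2.79 FPKM in PBS.

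Genes higher in APAP were led by a polycomb subunit. Cbx2, a chromobox subunit of polycomb repressive complex 1, had 4.51, 4.12 and 4.20 FPKM in APAP, against 2.79, 1.86 and 2.25 FPKM in PBS, the lowest being PBS 2. Its log2 fold change was 0.93 ± 0.15 (edgeR adjusted p = 0.0628), and 0.80 without PBS 2 (edgeR adjusted p = 0.0782). Of 20 tested polycomb genes none was called, 16 lay above 0 and 4 below, and the median was 0.10, beside 0.05 without PBS 2. The methyltransferase Ezh2 of polycomb repressive complex 2 had a log2 fold change of -0.03, and the complex 1 subunit Cbx8 one of 0.40.

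Neighbouring genes of the interferon-inducible p200 family on chromosome 1, whose products bind DNA, were higher in APAP without a call. Ifi203 had 21.41, 20.08 and 20.09 FPKM in APAP, against 15.35, 12.86 and 14.65 FPKM in PBS. Mndal had 9.98, 11.26 and 10.26 FPKM in APAP, against 7.53, 5.75 and 6.89 FPKM in PBS. Both were picked among genes whose groups did not overlap, with log2 fold changes of 0.56 and 0.68 and edgeR adjusted p-values of 0.157 and 0.158. Their sequences are related, so reads may be shared between family members. The type I interferon list as a whole had 9 tested genes above 0 and 8 below, none called, and a median of 0.02, beside 0.07 without PBS 2.

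Other genes higher in APAP without a call were Atf5, a stress-responsive bZIP transcription factor, and Mnt, a MAX-binding repressor that opposes MYC. Atf5 had 130.44, 105.63 and 117.68 FPKM in APAP, against 91.48, 63.74 and 83.77 FPKM in PBS (log2 fold change 0.60, edgeR adjusted p = 0.216). Mnt had 17.38, 11.33 and 12.61 FPKM in APAP, against 10.20, 7.86 and 8.33 FPKM in PBS (log2 fold change 0.69, edgeR adjusted p = 0.242). PBS 2 was the lowest library for each gene, and both were picked among genes whose groups did not overlap. The remaining genes higher in APAP that met the same condition, Dennd11, Pikfyve, Bend4, Cep68, Fam199x, Dennd4a and Osr2, had log2 fold changes of 0.33 to 0.67.

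The cyclooxygenases, the best known targets of acetaminophen, were both lower in APAP in every library without reaching the threshold. Ptgs2, the inducible enzyme, had 95.85, 102.71 and 76.21 FPKM in APAP, against 136.37, 527.47 and 151.52 FPKM in PBS. PBS 2 held more than any other library by far, and the log2 fold change was -1.53 with it (edgeR adjusted p = 0.296) and -0.61 without it (edgeR adjusted p = 0.208). Ptgs1, the constitutive enzyme, had 13.33, 13.71 and 11.85 FPKM in APAP, against 17.22, 18.83 and 17.21 FPKM in PBS. Here PBS 2 was close to the other controls, and the log2 fold change was -0.41 ± 0.12 (edgeR adjusted p = 0.350), and -0.37 without PBS 2. Pla2g4a, the phospholipase that frees arachidonic acid, had 16.40, 17.90 and 16.68 FPKM in APAP, against 19.16, 20.60 and 22.23 FPKM in PBS, again without overlap (edgeR adjusted p = 0.498). Of the 29 genes of this pathway in the table, 14 were tested, none was called, 10 lay below 0 and 4 above, and the median was -0.17, beside -0.06 without PBS 2. In 3 of the 14 the APAP libraries all lay below the PBS libraries, beside 11.2% of all tested genes. Without PBS 2 there were 5 such members, beside 20.3% of all tested genes.

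Genes that handle acetaminophen in liver gave no call. Cyp2e1 was listed at 0 in all 6 libraries, and 12 of 27 genes for conjugation, oxidation and export passed the filter on low values. None of the 12 was called, 5 lay above 0 and 7 below, and the median was -0.10, beside -0.03 without PBS 2. Ugdh, which makes the sugar donor for glucuronidation, had 6.88, 7.50 and 6.58 FPKM in APAP, against 8.52, 14.28 and 8.82 FPKM in PBS (edgeR adjusted p = 0.350). Gstp1, a glutathione transferase, had 103.23, 101.90 and 110.79 FPKM in APAP, against 109.76, 94.32 and 109.02 FPKM in PBS, and the groups overlapped. Among 28 tested genes of the NRF2 and glutathione response none was called, and the median was -0.09 with PBS 2 and 0.08 without it. Among 27 tested genes of the endoplasmic reticulum and amino acid stress responses none was called, and the median was -0.03 with PBS 2 and 0.11 without it.

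Chemokines and cytokines had the lowest median of the lists, and its size leaned on PBS 2. Of 17 tested members none was called, 15 lay below 0, and 7 had APAP libraries all below the PBS libraries, beside 11.2% of all tested genes. Without PBS 2 there were 9 such members, beside 20.3% of all tested genes. The median log2 fold change was -0.68 with PBS 2 and -0.52 without it, and PBS 2 held the highest value of 9 of the 17. Cxcl5, a neutrophil attractant, had 4.63, 5.22 and 4.00 FPKM in APAP, against 13.02, 37.37 and 10.21 FPKM in PBS. Cxcl5 was among the genes picked for groups that did not overlap. Its log2 fold change was -2.09 with PBS 2 (edgeR adjusted p = 0.157) and -1.29 without it (edgeR adjusted p = 0.0642). Cxcl1, another neutrophil attractant, had 2.23, 3.77 and 3.38 FPKM in APAP, against 7.90, 39.52 and 5.81 FPKM in PBS. Il1a, an alarm cytokine, had 7.61, 9.47 and 9.12 FPKM in APAP, against 18.90, 178.41 and 9.32 FPKM in PBS, so only PBS 2 and PBS 1 were clearly above APAP. The log2 fold changes of Cxcl1 and Il1a were -2.47 and -2.94 with PBS 2, and -1.10 and -0.66 without it. Csf3, the granulocyte colony stimulating factor, was steadier, with 12.87, 18.23 and 15.23 FPKM in APAP, against 19.89, 27.00 and 20.75 FPKM in PBS (edgeR adjusted p = 0.407). The neutrophil markers were high in PBS 2, as were Cxcl5, Cxcl1 and Il1a. The macrophage markers were high in PBS 1, where Il1a lay above PBS 3, Cxcl5 and Cxcl1 lay nearer to PBS 3 than to PBS 2, and Csf3 was the lowest control. The source of these marker transcripts and their part in the chemokine and cytokine values were not tested. Because these are bulk samples, a change in how many cells of a type were present cannot be told apart from a change in RNA per cell.

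**Figure D3:**
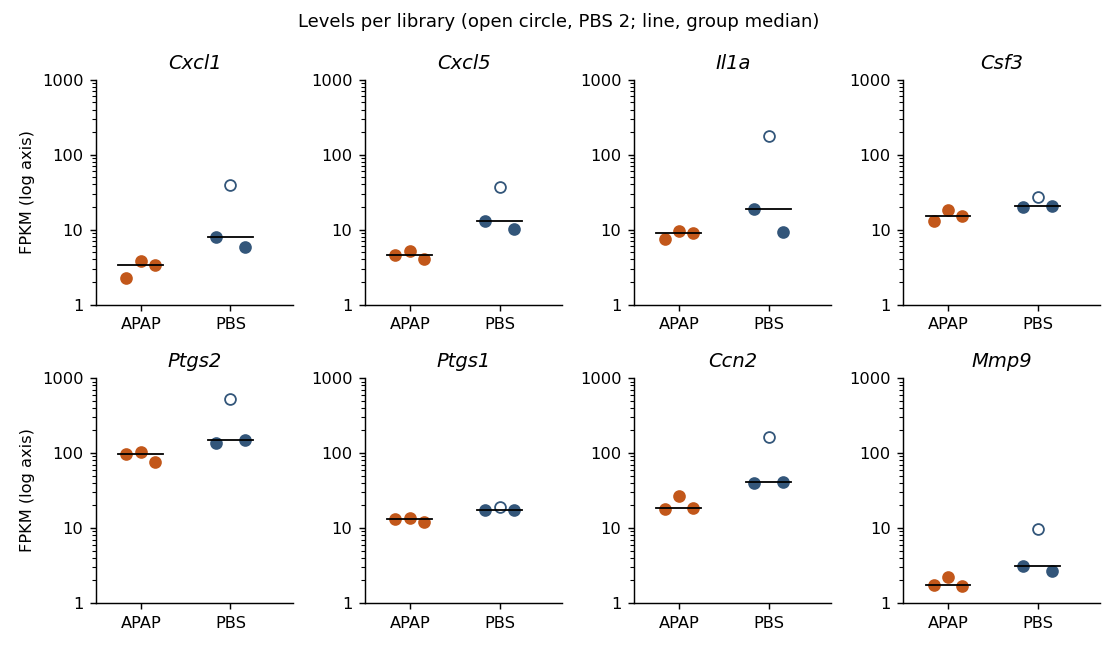
FPKM per library on a log axis for 8 genes, in most of which PBS 2 departed from the other controls (not in Ptgs1 and little in Csf3), APAP left of PBS, with an open circle for PBS 2 and a line for the group median. The APAP libraries lay at 76.21 to 102.71 FPKM for Ptgs2 and 7.61 to 9.47 FPKM for Il1a, while PBS 2 reached 527.47 and 178.41 FPKM.

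Immediate early genes, which encode transcription factors induced within minutes of a growth signal, were called in no member. Of 22 tested members 16 lay below 0, 7 had APAP libraries all below the PBS libraries (beside 11.2% of all tested genes), and the median was -0.22, beside -0.13 without PBS 2. The AP-1 subunit Fosl1 had 83.93, 84.43 and 58.50 FPKM in APAP, against 108.18, 128.13 and 105.42 FPKM in PBS (log2 fold change -0.55, edgeR adjusted p = 0.360). The AP-1 subunit Junb had 65.72, 72.54 and 77.71 FPKM in APAP, against 93.29, 193.48 and 91.16 FPKM in PBS (log2 fold change -0.77, and -0.32 without PBS 2). The first-wave genes Fos and Egr1 had log2 fold changes of -0.56 each with PBS 2, and of 0.61 and 0.54 without it, so their direction rested on that library.

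Genes of mesenchymal character and invasion were below 0 in 9 of 11 tested members, with none called and a median of -0.32, beside -0.30 without PBS 2. S100a4, a calcium-binding protein linked to metastasis, had 6.04, 11.08 and 11.24 FPKM in APAP, against 17.72, 23.12 and 22.93 FPKM in PBS. The groups did not overlap, and the log2 fold change was -1.13 ± 0.28 (edgeR adjusted p = 0.275), and -1.06 without PBS 2. The gelatinase Mmp9 had 1.74, 2.24 and 1.69 FPKM in APAP, against 3.09, 9.75 and 2.63 FPKM in PBS, and its log2 fold change was -1.41 with PBS 2 and -0.56 without it.

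Genes of cytosolic ribosomal proteins all lay slightly lower in APAP. All 80 tested members lay below 0, 45 had APAP libraries all below the PBS libraries, beside 11.2% of all tested genes, and none was called. The median log2 fold change was -0.20, and -0.19 without PBS 2, beside -0.004 and -0.002 over all tested genes. Ribosomal protein genes have many near-identical pseudogene copies, so their counts depend on how reads that fit several places were shared, a step the labels do not describe.

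The remaining lists gave no call. Those of NF-kB feedback, p53-linked genes, the BCL2 family and ferroptosis had medians of -0.15, -0.06, -0.12 and -0.09 with all libraries, and of -0.10, 0.04, -0.04 and 0.07 in that order without PBS 2. In further lists the median lay near 0 once PBS 2 was left out. Cholesterol synthesis genes had 18 of 21 tested members below 0 and a median of -0.31, which was -0.04 without PBS 2, the highest library for 18 of the 21. Keratin genes had 7 of 8 below 0 and a median of -0.27, which was -0.005 without PBS 2, the highest library for all 8. The 13 mRNAs of mitochondrial DNA were all lowest in PBS 2, and their median was 0.18 with it and 0.03 without it. The 32 tested genes of the cell cycle and DNA replication had a median of -0.07 with PBS 2 and 0.04 without it. No member of these lists was called.

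Other tests called more genes. DESeq2 and limma voom with array quality weights, which gives PBS 2 a weight of 0.131, both called 60 genes, 46 lower and 14 higher in APAP. DESeq2 by itself called 72 genes lower and 25 higher, but 95 lower and 89 higher without PBS 2. Array weights called 76 lower and 29 higher, and 58 lower and 26 higher without PBS 2. These 60 genes include Dsg3, Plk2, Stom and genes given above without a call by edgeR. The latter include Cavin2, Plau, Serpinb2, Cbx2, Cxcl5, Cxcl1, Vegfc, Pdgfb, Hbegf, Tmem176a, Gvin1, Ankrd1, Ifi203, Mndal, Atf5, S100a4 and Dsp. The genes described next were picked from the 60 after their values were seen, and none was called by edgeR in the fits over all groups. Edn1, the vasoconstrictor endothelin 1, had 3.78, 4.57 and 2.90 FPKM in APAP, against 6.57, 14.81 and 8.34 FPKM in PBS (log2 fold change -1.36, and -0.94 without PBS 2). Inhba, the activin A subunit, had 8.78, 10.31 and 7.41 FPKM in APAP, against 11.95, 22.52 and 15.18 FPKM in PBS (log2 fold change -0.86, and -0.57 without PBS 2). Both secreted factors were lower in every APAP library, and PBS 2 was the highest control for each.

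Among matrix and surface genes called by both of these tests, PBS 2 was closer to the other controls for some. Col8a1, a short-chain collagen, had 16.71, 20.10 and 15.92 FPKM in APAP, against 23.69, 26.47 and 26.56 FPKM in PBS (log2 fold change -0.50, and -0.47 without PBS 2). Lgr6, a receptor for R-spondins, had 3.13, 3.38 and 3.05 FPKM in APAP, against 4.51, 4.98 and 4.61 FPKM in PBS (log2 fold change -0.52, and -0.47 without PBS 2). Nrg1, a ligand of ERBB receptors, had 2.02, 2.34 and 2.16 FPKM in APAP, against 3.31, 2.92 and 3.67 FPKM in PBS (log2 fold change -0.56, and -0.64 without PBS 2), and edgeR called it when only the 5 APAP and PBS libraries that remain without PBS 2 were fitted (edgeR adjusted p = 0.0214). The groups did not overlap for any of these genes. Itga2 and Lama3, an integrin and a laminin chain, had log2 fold changes of -0.69 and -0.62, which were -0.44 and -0.42 without PBS 2.

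**Figure D4:**
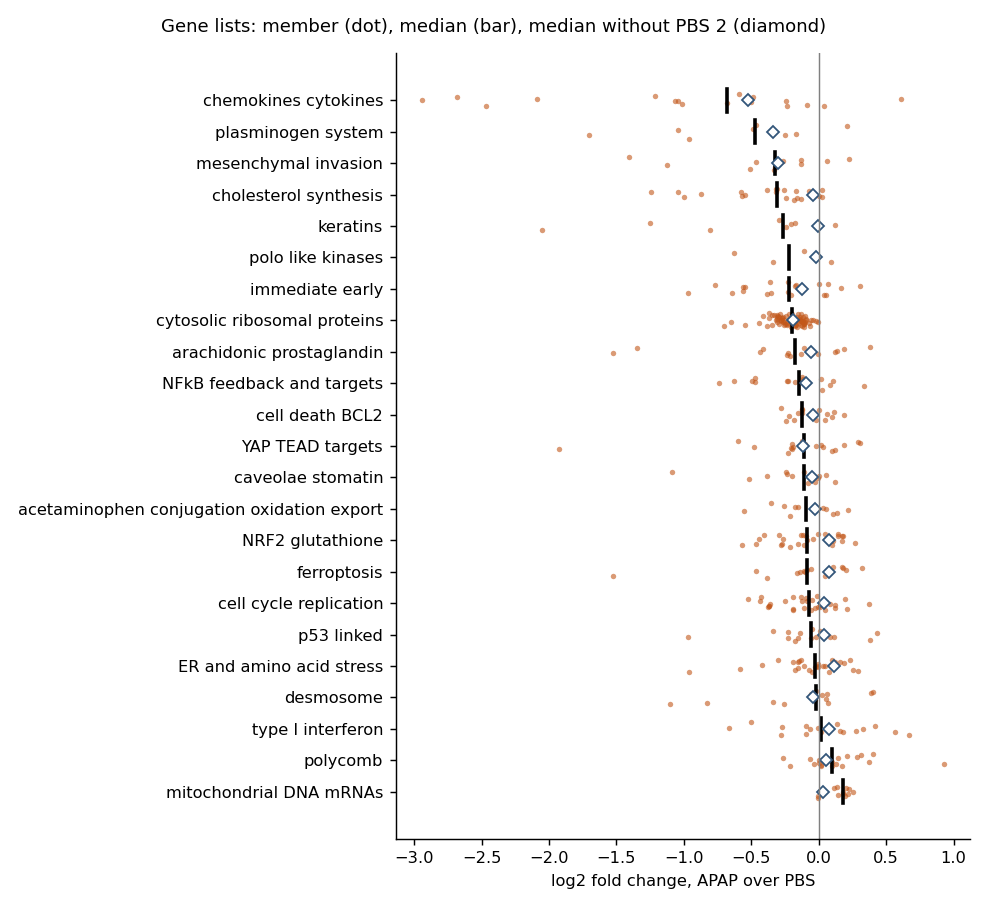
Log2 fold change of APAP over PBS on the horizontal axis for each gene list, with a dot per tested member, a bar for the median of all 6 libraries and a diamond for the median without PBS 2. Diamonds move towards 0 for keratins (median -0.27 to -0.005 when PBS 2 is left out) but stay near the bar for cytosolic ribosomal proteins (-0.20 and -0.19).

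**Figure D5:**
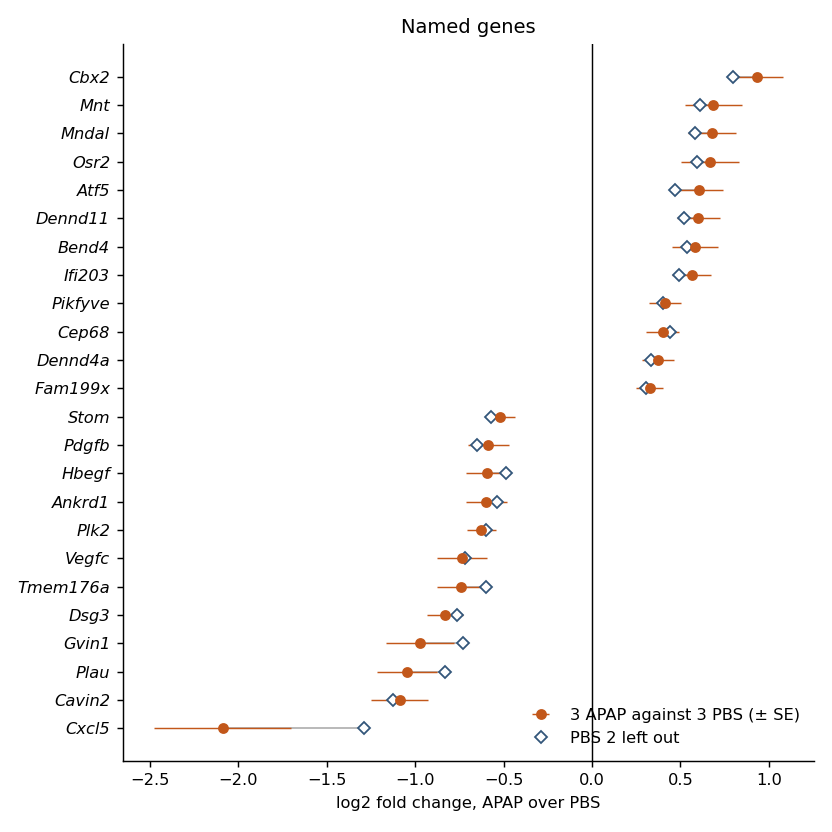
Log2 fold change of APAP over PBS on the horizontal axis for the named genes on the vertical axis, with a filled marker and its ± SE line for 3 against 3 libraries and an open diamond for the fit without PBS 2. Dsg3 (-0.83 and -0.77) and Plk2 (-0.62 and -0.60) barely move, while Cxcl5 moves by more (-2.09 and -1.29).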

How the data were processed

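Per the labels' protocols, poly(A) RNA from 4T1 cells went into paired-end dUTP libraries, 12 in all. The tools cutadapt 1.9, HISAT2 2.2.1 and StringTie 2.1.6 appear in the submitters' processing notes, as do edgeR and DESeq2, with no roles given; the build listed there is mm9. GENCODE M21 (GRCm38) held 29864 of the gene identifiers, 87.9% of them at an identical position, and GRCm38 is therefore the build of the coordinates printed. Per the file headers, the deposited table holds FPKM, which the authors scaled to transcript length and library size, and a count per gene. The deposited counts are whole numbers and were treated as estimated counts (expected counts), because the notes name StringTie. The strand used in counting is not given in the sources used here, so overlapping and near-identical genes are less certain.

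The test took genes that reached 1 FPKM in 3 or more libraries (12036 of 29937). It used edgeR 4.0.16 in R 4.3.3, with TMM factors and a quasi-likelihood fit of 1 mean for each of 4 groups over all 12 libraries, 2-sided, and again without PBS 2. The biological coefficient of variation was 18.1%, and 15.1% without PBS 2. Each SE was derived from the fold change and its F statistic. The step was tested on simulated data. Alternatives were DESeq2 1.42.0, limma 3.58.1 on log2(FPKM + 1) and log2(FPKM + 0.1), voom with array weights, other scalings and filters, a replicate block, and leaving out each library.

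Named genes were the called genes, then the 12 smallest p-values in each direction among genes whose groups did not overlap and whose higher group averaged at least 2 FPKM, up to 4 members of each of 23 gene lists by smallest p, and Ptgs1, Ptgs2 and Cyp2e1. Csf3, Gstp1 and list members given by a fold change alone were added for context. The comparison and the lists were chosen with earlier results of these data known. Promoter sequences are from RefSeq, where 16 of 24 genes had an entry that was searched. A few named genes are not reported here.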

Additional observations from a re-analysis of the deposited data

How the results depend on the processing

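The number of genes called between APAP and PBS was 2 under other scalings, the stricter filter and limma. DESeq2 called 97 genes and voom with array weights 105, of which 60 were shared, 46 lower and 14 higher in APAP. edgeR called 0 genes without a filter on low values (1686 at an unadjusted p below 0.05), 0 with only the 6 APAP and PBS libraries (917 unadjusted), and 0 to 3 genes when 1 library was left out, the 0 being without APAP 1 (569 unadjusted). Without PBS 2, DESeq2 called 184 genes (95 lower and 89 higher) and array weights 84 (58 lower and 26 higher). In that setting edgeR called 0 genes without a filter (1760 unadjusted). On only the 5 libraries it called 20, among them Thbs1, Serpinb2, Cxcl5, Plau and Cavin2. Leaving out 1 APAP library as well gave 0 to 6 genes by edgeR, the 0 being without APAP 1 (697 unadjusted). Leaving out PBS 1 or PBS 3 as well left a lone control library, assumed to vary like the others, so no count is given. The 9 came without PBS 1 and include the macrophage genes Lyz2, Mpeg1 and Ctss. For Dsg3 the log2 fold change was -0.84 without a filter (edgeR adjusted p = 0.0616) and -0.83 with only 6 libraries (0.450), and -0.92 to -0.75 over libraries left out. For Plk2 it was -0.63 without a filter (0.0616), -0.63 with only 6 libraries (0.450), and -0.66 to -0.57 over libraries left out. Among the genes named by rule, signs turned for Papss1 (-0.428 to 0.029 over libraries left out), Plk3 (0.275 with array weights, -0.594 to 0.349 over libraries left out), Plk4 (0.043, and -0.203 to 0.028) and Plk1 (-0.065, and -0.071 to 0.2). In each, leaving out PBS 2 turned the sign, as it did for Fos and Egr1, list members outside that rule. The cause of the differences between tools was not tested.

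With the replicate number as a block edgeR called 3 genes, adding Cavin2, and 0 without PBS 2 (1118 unadjusted). No pairing by replicate number was seen: same-numbered APAP and PBS libraries deviated with correlations of -0.07, -0.02 and 0.09, and 2 of 6 libraries correlated best with their own number. With 3 libraries a group and PBS 2 apart from the other controls, these values cannot exclude a pairing.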
